A study of Mus musculus with 39 samples.

Results

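RNA from livers of SXR knockout (KO) mice was set against RNA from livers of wild-type (WT) mice, with both genotypes exposed to PCB-153. The comparison covered 16155 of the 54735 genes in the liver table, chosen by a mean normalised read count of at least 10 over the 20 liver libraries. The last gene inside that limit averaged 10.005 and the first outside it 9.991. The KO and WT groups had 5 libraries each, out of 39 libraries of liver and spleen in the series. All mice were C57BL/6 and 4 weeks old, and both groups had been given a daily PCB-153 dose of about 54 µg/kg that began perinatally. KO and WT livers from mice given DMSO in place of PCB-153, again 5 and 5, are used where the same difference was set beside that without the compound. The labels do not say which exons of the receptor gene were removed, which litters the mice came from or whether each library is a separate animal. P-values therefore measure only the spread between these samples, and the part of litters in a difference between genotypes was not tested.

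SXR, also called PXR and encoded by Nr1i2, is a nuclear receptor that binds drugs, steroids and bile acids, pairs with the retinoid X receptor and switches on liver genes for oxidation, conjugation and export of such compounds. CAR, encoded by Nr1i3, is its close relative and shares many of these target genes. PCB-153 is a persistent polychlorinated biphenyl of the non-dioxin-like kind, a class known to act on CAR and, in rodents, on PXR. Mouse liver also carries a large set of genes that differ between the sexes, which the pulsed or steady release of growth hormone sets through the transcription factor STAT5b, and the adult male pattern forms around puberty.

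The PCB-153 libraries held 16.75 to 28.65 M assigned reads. In all 20 liver libraries Xist did not exceed 5.536 and Y-linked Eif2s3y was at least 582, the pattern of male tissue. The 9 hepatocyte markers tested summed to between 2070000 and 2760000 normalised counts per KO liver and between 2250000 and 2760000 per WT liver, and none of them was called. Among markers of bile duct, stellate, endothelial, macrophage, neutrophil, B, T and natural killer, red blood and pancreatic cells, 58 were tested and only Alas2 of the red cell list and Cela1 of the pancreatic list were called, both lower in KO livers. Over all genes 1.45% were called. Of the 8 pancreatic markers, 5 stood at 0 in all PCB-153 libraries. Cover was uneven, with 1 of 8 pancreatic, 1 of 10 neutrophil and 5 of 10 T and natural killer markers tested. All 10 endothelial markers had a higher mean in KO livers (median log2 fold change 0.26). Of 10 macrophage markers 8 had a lower and 2 a higher mean (median -0.16). These are whole-tissue samples, in which fewer cells of a type and less RNA per cell cannot be told apart.

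Nr1i2 (chromosome 16, 38248323 to 38294824, mm10) was measured first as a check of the genotype labels. Its normalised counts were 952, 1155, 891, 698 and 612 in the KO livers, against 1077, 1019, 1642, 1939 and 1297 in the WT livers. The groups overlapped and limma made no call (-0.69 ± 0.20 as log2 fold change and SE, Benjamini-Hochberg adjusted p = 0.111), while the authors' deposited table gives -0.70 with an adjusted p of 0.0402. A count over the whole gene also takes in reads of any exons that a knockout allele retains.

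Between the KO and WT livers, 25 of 35 genes of adult male liver were lower, 15 of 38 genes of adult female liver were higher, and 18 genes of the SXR/PXR and CAR target lists, among them xenobiotic enzymes, sulfotransferases and an exporter, were higher. Of the 16155 genes, 234 passed an adjusted p of 0.05 (limma, Benjamini-Hochberg over all genes), which is 1.45% of those tested. Of these, 96 rose in KO livers, 0.594% of all tested, and 138 fell, 0.854%. The median log2 fold change was 1.17 among the genes that rose, -1.38 among those that fell and 0.002 over all genes tested. In 193 of the 234 the 5 KO values did not overlap the 5 WT values, as was the case for 2.59% of all genes tested (1.21% with KO above WT and 1.38% with KO below WT). The sex-biased and major urinary protein lists below held 50 of the 234 genes, the SXR/PXR and CAR target lists 18, and 144 belonged to none of the 43 lists examined. The 50 and the 18 share genes, among them Sult2a1. Dropping WT library 1 or WT library 2 brought the 234 genes down to 140 or 124, and on the recovered reads edgeR called 220 (1.36%) and DESeq2 380 (2.35%).

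**Figure D1:**
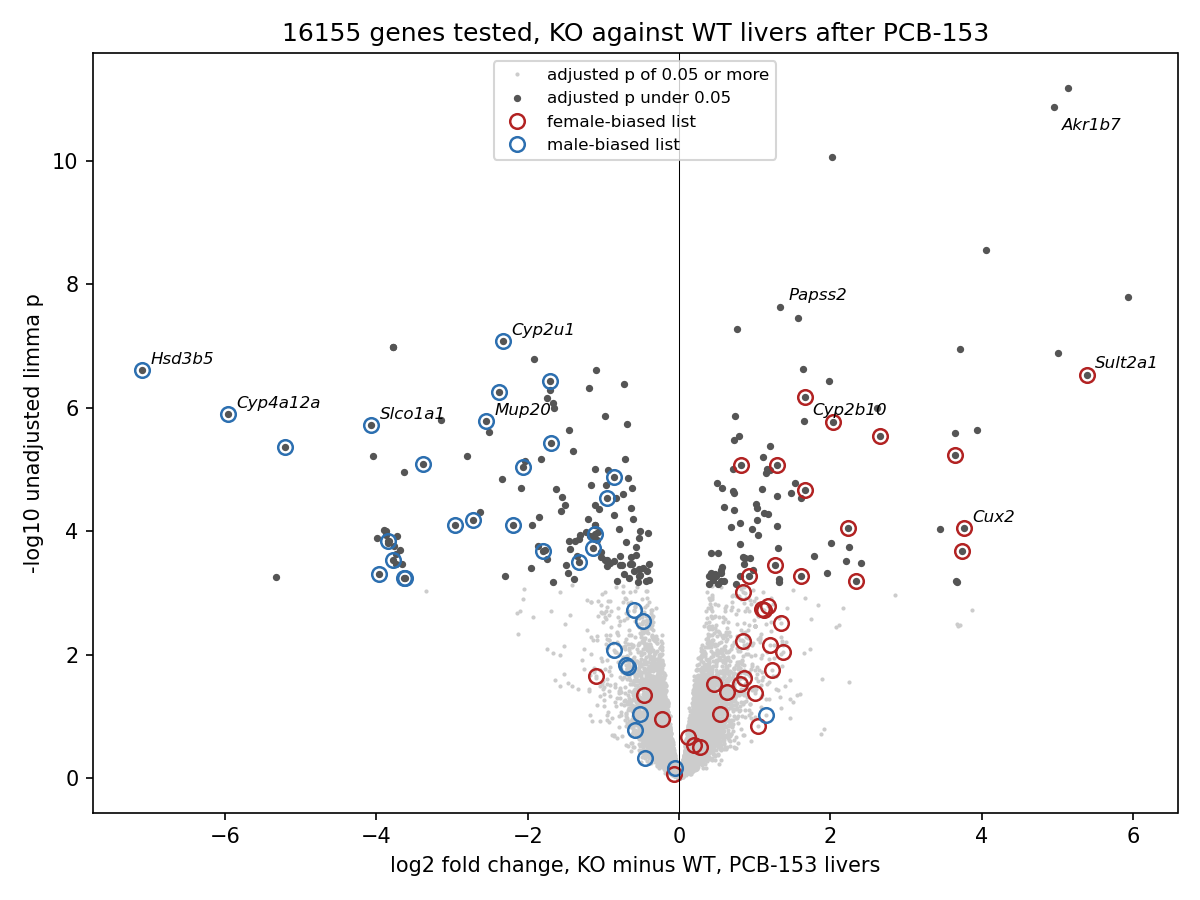
Log2 fold change of KO over WT livers after PCB-153 (x axis) against -log10 of the limma p-value (y axis) for the 16155 genes tested, with male-biased genes ringed in blue and female-biased genes in red. The blue rings lie mostly on the left, where 25 of the 35 male-biased genes passed the test, and the red rings mostly on the right, where 15 of the 38 female-biased genes passed.

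**Figure D2:**
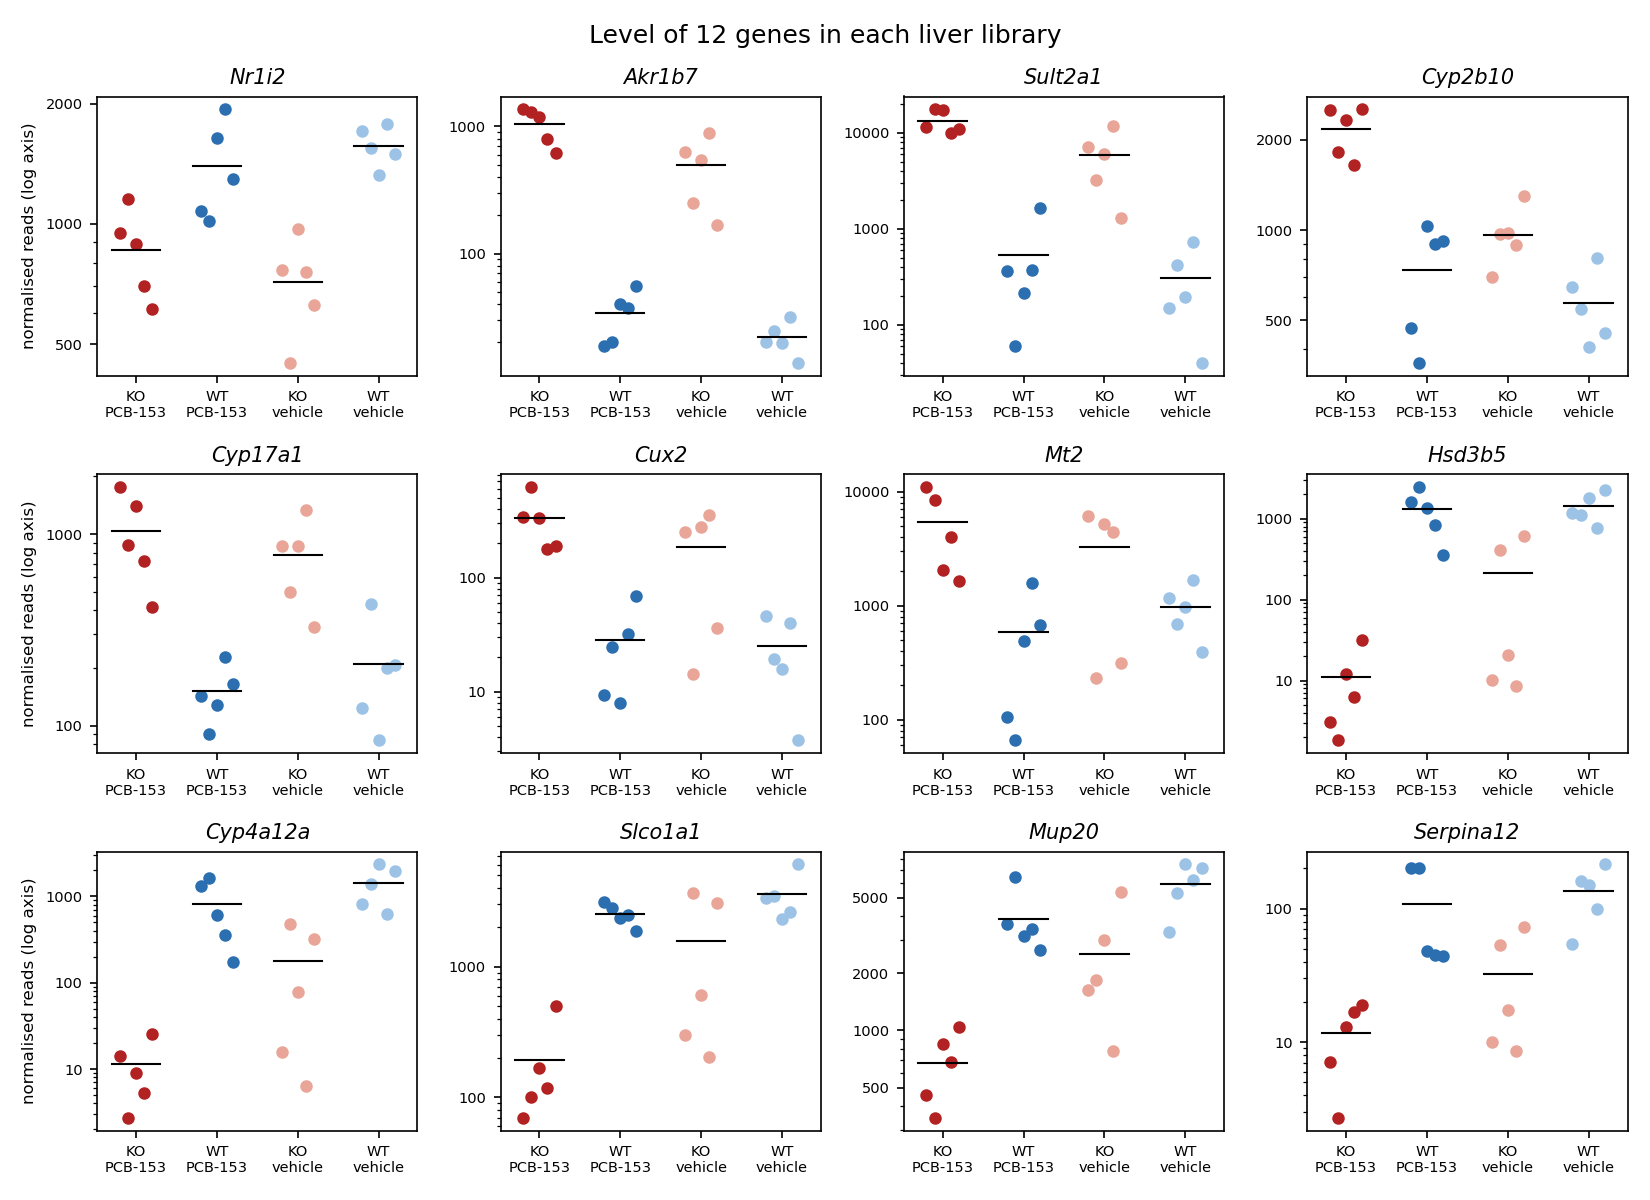
Normalised read counts (y axes, log scale) of 12 genes in each KO and WT liver, 5 per group, after PCB-153 and under vehicle. A line marks the group mean and each point is 1 library. After PCB-153 the points of the 2 genotypes overlap in the Nr1i2 panel but not for Akr1b7, Sult2a1, Hsd3b5 and Slco1a1.

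The male-biased list holds genes that adult male mouse livers express most. All 35 were tested, 25 of them fell in KO livers and none rose, against 0.854% of all genes that fell, and the list's median log2 fold change was -1.80. The list holds 7 major urinary protein genes, all called and counted again with that family below, and without them 18 of 28 genes fell (median -1.23). Hsd3b5 (chromosome 3, 98618634 to 98630252), a steroid dehydrogenase of male liver, had normalised counts of 3.03, 1.82, 11.9, 6.2 and 31.8 in the KO livers, against 1616, 2494, 1365, 836 and 355 in the WT livers. Every KO liver was far below every WT liver (-7.09 ± 0.96, adjusted p = 0.000236, 137-fold lower). Its 50-base words are shared with other genes for 21.2%, so part of its level is uncertain. Slco1a1 (chromosome 6, 141907282 to 141946962), which takes organic anions and steroid conjugates up from blood, stood at 69.8, 101, 167, 118 and 503 in KO livers, against 3110, 2811, 2374, 2498 and 1862 in WT livers (-4.07 ± 0.63, adjusted p = 0.000807, 16.8-fold lower). The groups were again apart, with KO liver 5 the highest and WT liver 5 the lowest of their groups for both genes.

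Cyp4a12a and Cyp4a12b encode fatty acid hydroxylases of male liver and kidney that share much of their sequence. Their summed counts were 28.32, 6.353, 16.85, 8.864 and 40.65 in KO livers, against 1969, 2488, 966.6, 522.2 and 277.7 in WT livers. The mean was 61.6-fold lower in KO livers and the groups did not overlap (exact permutation test, two-sided p = 0.00794, the smallest that 5 against 5 libraries allow). Cyp2u1, another fatty acid hydroxylase, was counted at 59.7, 64.4, 40.6, 83.3 and 66.7 in KO livers, against 551, 562, 208, 216 and 212 in WT livers (-2.33 ± 0.29, adjusted p = 0.00015). Selenbp2, a selenium-binding protein, stood at 4336, 4818, 3392, 4053 and 4569 in KO livers, against 16630, 21822, 11093, 17114 and 7037 in WT livers (-1.71 ± 0.24, adjusted p = 0.000302). Both genes were low in all 5 KO livers, and the WT livers varied more than the KO livers. Cspg5, a proteoglycan gene, fell by 2.38 on the log2 scale (adjusted p = 0.000373) at low counts. Elovl3, which lengthens fatty acids, fell by 3.96 (adjusted p = 0.0388), a call that 9 alternatives ended, among them leaving out any of WT libraries 1 to 4. For the whole list, 15 genes fell without WT library 2 and 16 without KO library 1.

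Major urinary proteins are small carriers of scent molecules that the liver secretes and the kidney passes on, and males make more of them. Of 18 tested genes of this family, 17 fell in KO livers and the 18th was lower without passing, with a median log2 fold change of -3.73. The KO and WT values of all 18 did not overlap, against 1.38% of all genes with KO below WT. Summed over the 21 family members in the table, counts were 6779, 5083, 26004, 15591 and 47131 in KO livers, against 226953, 302032, 140859, 239643 and 86332 in WT livers (exact permutation test, p = 0.00794). This was 0.0287% to 0.259% of all normalised reads in KO livers and 0.493% to 1.61% in WT livers. The family share was thus below its lowest WT value in all 5 KO livers, and spread widely inside each group.

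Single members of the family are hard to tell apart by reads, and Mup13 shares 92.8% of its 50-base words with other genes. For Mup3, Mup21 and Mup20 that share was 13.3%, 19.3% and 50.5%. Mup20 encodes darcin, a male pheromone, and had counts of 457, 346, 848, 683 and 1049 in KO livers, against 3623, 6440, 3161, 3448 and 2645 in WT livers (-2.55 ± 0.39, adjusted p = 0.000756). Mup3 fell by 3.39 (adjusted p = 0.0023) and Mup21 by 2.73 (adjusted p = 0.00996). The 17 family calls depended on the libraries and on the tool. There were 3 without WT library 2 or without KO library 1, 5 without KO library 2, 7 without WT library 1, 9 without WT library 4, and edgeR on the recovered reads gave 11.

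The female-biased list moved the other way. All 38 genes were tested, 15 rose in KO livers and none fell, against 0.594% of all genes that rose, and the median log2 fold change was 1.11. Cyp17a1 (chromosome 19, 46667165 to 46673172), a hydroxylase and lyase of steroid hormone synthesis, had counts of 1766, 880, 1405, 721 and 418 in KO livers, against 143, 90.6, 129, 228 and 165 in WT livers (2.66 ± 0.42, adjusted p = 0.00104). Cux2, a transcription factor of female liver, had 343, 629, 333, 180 and 191 in KO livers, against 9.35, 24.6, 8.0, 31.9 and 69.2 in WT livers (3.76 ± 0.78, adjusted p = 0.0124). For both genes every KO liver was above every WT liver. Prom1, a cell surface protein of progenitor cells, rose by 2.04 (adjusted p = 0.000758). The 15 list calls became 9 without WT library 2.

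**Figure D3:**
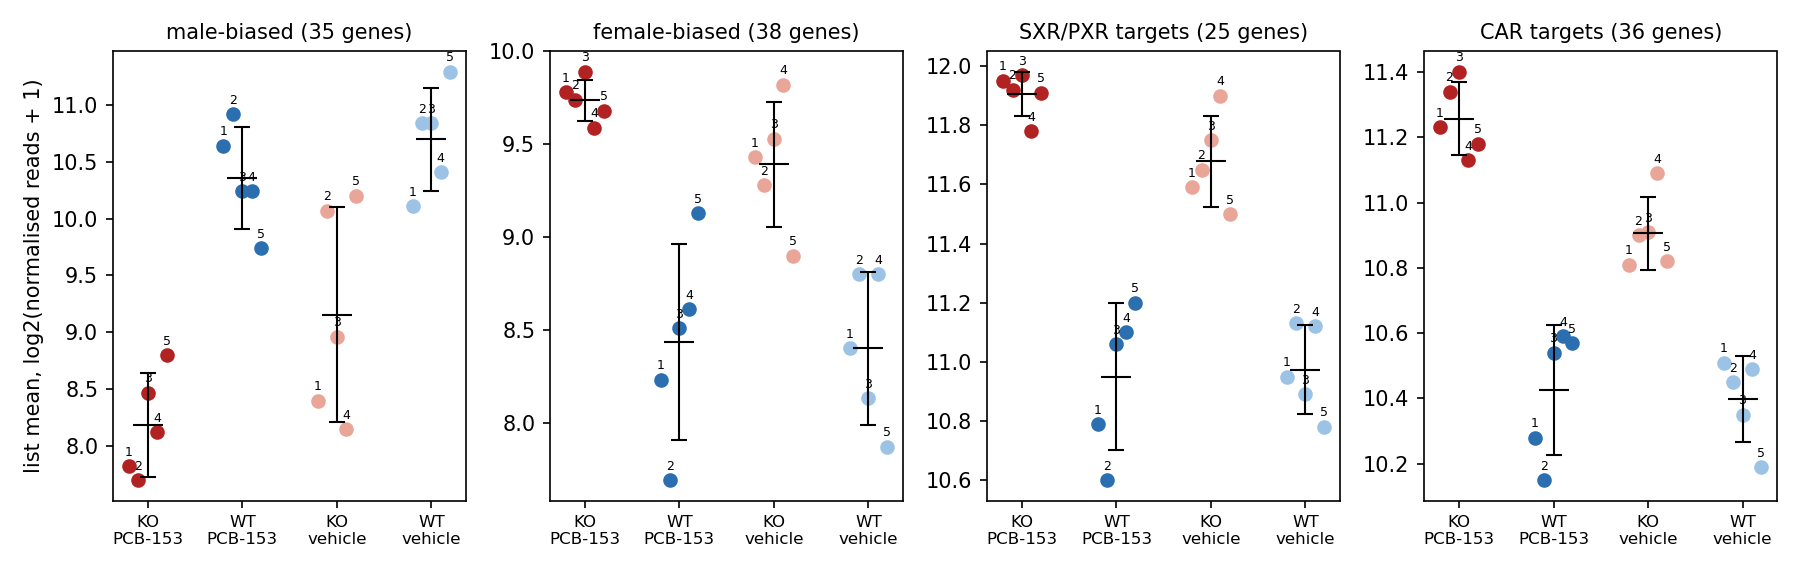
Mean log2(normalised count + 1) (y axes) in each numbered KO and WT liver after PCB-153 and under vehicle. Panels show the male-biased, female-biased, SXR/PXR target and CAR target lists, with bars at the group mean ± SD. After PCB-153 the male-biased mean runs between 7.70 and 8.80 in KO livers and between 9.74 and 10.92 in WT livers. The female-biased mean after PCB-153 runs between 9.59 and 9.89 in KO livers and between 7.69 and 9.13 in WT livers.

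Within the WT group, libraries 2 and 5 stood at opposite ends of both sex-biased lists, as the plot of list means by library shows. WT library 2 had the highest male-biased mean of its group (10.92) and the lowest female-biased mean (7.69), and WT library 5 the lowest male-biased (9.74) and highest female-biased mean (9.13). The number of genes called over the whole table was 124 without WT library 2 and 337 without WT library 5.

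The list of the growth hormone chain that sets the sex bias held 26 tested genes, 21 of them not called. On it 4 genes rose, against 0.594% of all genes tested, and 1 fell, against 0.854%. Of those that rose, Prlr, Cux2 and Trim24 are also in the female-biased list. Igf1, the growth factor that growth hormone induces in liver, had counts of 5656, 5725, 6000, 6439 and 7208 in KO livers, against 12151, 11837, 7631, 9279 and 7825 in WT livers. The groups were apart by a narrow gap (-0.63 ± 0.14, adjusted p = 0.0257), and 8 alternatives, listed with the processing, ended the call. Igfbp2, which binds that factor in blood, had 17696, 18999, 20876, 13428 and 11668 in KO livers, against 5370, 7445, 9386, 7005 and 9226 in WT livers (1.10 ± 0.20, adjusted p = 0.00425). Prlr, the prolactin receptor, rose by 0.82 (adjusted p = 0.0023). Genes of the chain itself, chosen after their values were seen, had log2 fold changes of -0.28 for the growth hormone receptor Ghr (adjusted p = 0.374), 0.20 for Stat5b (adjusted p = 0.664) and 0.59 for the feedback inhibitor Socs2 (adjusted p = 0.811).

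Sulfotransferases of the Sult2a family attach sulfate to hydroxysteroids and bile acids, and Papss2 makes the sulfate donor. Sult2a1 (chromosome 7, 13796246 to 13837409) had counts of 11414, 17590, 17047, 9992 and 10980 in KO livers, against 359, 60.4, 214, 372 and 1642 in WT livers (5.39 ± 0.73, adjusted p = 0.000261, 41.9-fold). Each KO liver was above each WT liver. The gene shares 33.2% of its 50-base words with relatives, so the family was also summed over its 8 genes, which gave 27819, 38364, 39994, 26367 and 28742 in KO livers, against 9485, 6836, 7129, 9868 and 12028 in WT livers, a ratio of 3.56 (exact permutation test, p = 0.00794). Sult2a5 (3.94), Sult2a2 (3.65) and Sult2a4 (3.46, a call lost without WT library 2) rose as well. Papss2 had 6499, 5486, 7120, 7034 and 6660 in KO livers, against 2078, 2061, 2685, 2823 and 3597 in WT livers (1.33 ± 0.16, adjusted p = 6.17e-05). Sult1e1, the oestrogen sulfotransferase, had 282, 169, 234, 117 and 19.7 in KO livers, against 10.4, 4.47, 4.0, 43.2 and 3.69 in WT livers (3.74 ± 0.84, adjusted p = 0.0214). KO liver 5 lay inside the WT range of Sult1e1, and the call was lost without any of 5 single libraries.

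Akr1b7 (chromosome 6, 34412334 to 34423142) encodes an aldo-keto reductase that clears lipid aldehydes and is known as a PXR and CAR target in mouse liver. It had counts of 1368, 1296, 1184, 798 and 614 in KO livers, against 18.7, 20.1, 40.0, 37.0 and 55.4 in WT livers. The lowest KO liver was more than 10-fold above the highest WT liver (4.95 ± 0.38, adjusted p = 1.09e-07, 30.9-fold). Of all genes only the predicted gene Gm13857, called in the same stretch of chromosome 6 and named after its values were seen, had a smaller adjusted p (1.04e-07, limma). Its other neighbour Akr1b10 rose by 0.98 (adjusted p = 0.0356).

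The lists of known SXR/PXR and CAR targets had calls in 1 direction. Of 25 SXR/PXR targets tested, 9 rose in KO livers and none fell, with a median log2 fold change of 0.53. Of 36 CAR targets tested, 15 rose and none fell, with a median of 0.50, against 0.594% of all genes that rose. The lists overlap by 16 tested genes, 6 of them called, so these counts are not separate. The female-biased list shares 1 called gene, Sult2a1, with the SXR/PXR list. With the CAR list it shares 3, Cyp2b9, Cyp2b13 and Sult1e1. Without genes of the female-biased list, 8 of 23 SXR/PXR targets (median 0.53) and 12 of 33 CAR targets (0.44) rose. In both lists the mean level of every KO liver exceeded that of every WT liver, after PCB-153 and also under vehicle. The CAR count was 10 without WT library 2 and without KO library 3.

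**Figure D4:**
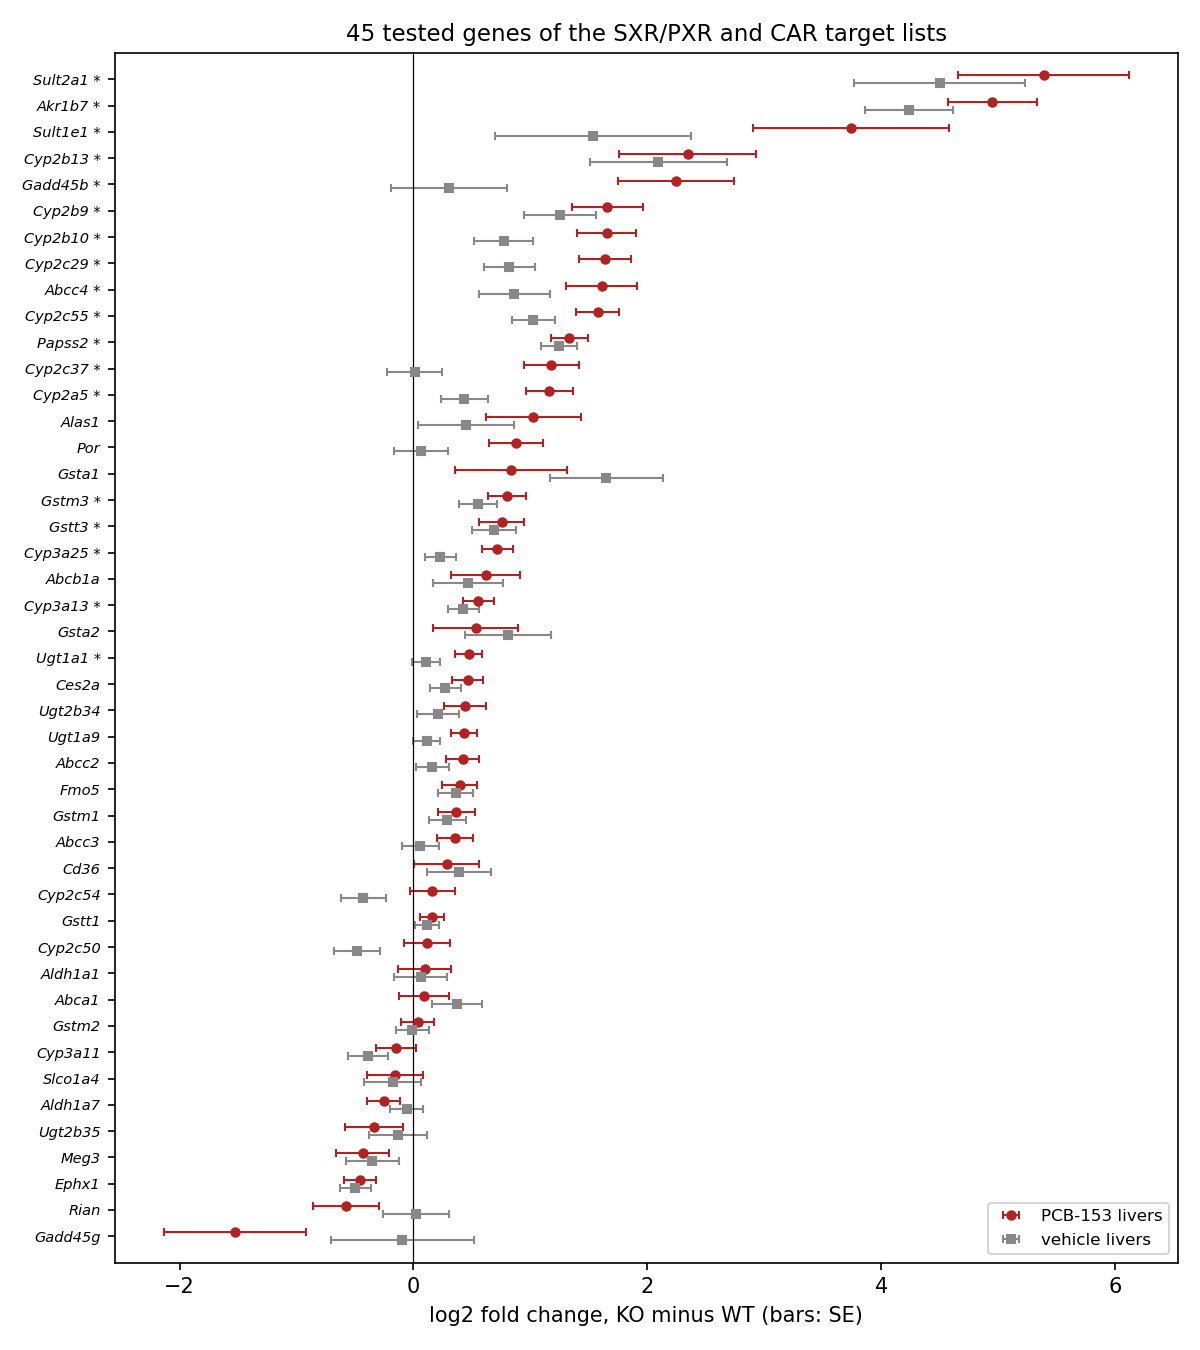
Log2 fold change of KO over WT livers ± SE (x axis) for the 45 tested genes of the SXR/PXR and CAR target lists, with red circles after PCB-153, grey squares under vehicle and a star at an adjusted p under 0.05. Sult2a1 and Akr1b7 stand farthest to the right at both exposures, and Cyp3a11 lies just left of 0.

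Cyp2b enzymes oxidise drugs and are the best known CAR targets. Cyp2b10 had counts of 2509, 1816, 2333, 1652 and 2532 in KO livers, against 470, 361, 1032, 898 and 918 in WT livers (1.65 ± 0.25, adjusted p = 0.000756, 3.14-fold). Cyp2b13, a form of female liver, had 590, 309, 960, 771 and 575 in KO livers, against 91.4, 25.7, 185, 126 and 396 in WT livers (2.34 ± 0.58, adjusted p = 0.0453). Its groups overlapped and 13 alternatives ended that call. Summed over Cyp2b9, Cyp2b10 and Cyp2b13, counts were 7755, 4867, 7527, 6222 and 7144 in KO livers, against 1566, 902.4, 2830, 2339 and 3708 in WT livers, a ratio of 2.95 with no overlap (exact permutation test, p = 0.00794). Cyp2b9 rose by 1.66 (adjusted p = 0.00439), a gene named after its values were seen.

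The 250 bases before the start of Cyp2b9 (chr7:26173159-26173408, plus strand) and of Cyp2b13 (chr7:26061245-26061494, plus strand), from RefSeq on GRCm38.p6, are shown because these genes rose together and have nearly the same promoter. They are identical at 248 of 250 positions (99.2%), and capitals mark the positions that differ.
Cyp2b9: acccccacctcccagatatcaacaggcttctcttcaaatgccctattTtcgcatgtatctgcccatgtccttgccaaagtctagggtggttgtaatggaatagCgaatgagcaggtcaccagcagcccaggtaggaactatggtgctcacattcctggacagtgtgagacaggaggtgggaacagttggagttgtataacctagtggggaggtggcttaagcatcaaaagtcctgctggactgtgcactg
Cyp2b13: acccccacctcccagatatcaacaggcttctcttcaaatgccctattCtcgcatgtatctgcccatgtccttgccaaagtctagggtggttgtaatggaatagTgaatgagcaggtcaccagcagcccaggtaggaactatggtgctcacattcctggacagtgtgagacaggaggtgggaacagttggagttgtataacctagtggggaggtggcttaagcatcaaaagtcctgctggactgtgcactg

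Cyp2c29, which oxidises arachidonic acid and drugs, had counts of 41851, 52069, 61336, 37969 and 85719 in KO livers, against 13432, 16364, 18243, 15507 and 23973 in WT livers (1.64 ± 0.22, adjusted p = 0.000236). Cyp2c55, a related enzyme known as a PXR and CAR target, had 1174, 2391, 1906, 1657 and 3178 in KO livers, against 629, 769, 616, 524 and 768 in WT livers (1.57 ± 0.19, adjusted p = 8.07e-05). The KO livers were above the WT livers throughout for both genes. Cyp3a11, the classic drug-oxidising target of SXR, had 73363, 71043, 86246, 65119 and 104335 in KO livers, against 81170, 87098, 94314, 86187 and 89865 in WT livers. Its groups overlapped (-0.15 ± 0.17, adjusted p = 0.831). Other members of its family, named after their values were seen, rose, Cyp3a25 by 0.72 (adjusted p = 0.0045) and Cyp3a13 by 0.56. Cyp1a1 (-0.38 ± 0.30, adjusted p = 0.73) and Cyp1a2 (-0.44 ± 0.22, adjusted p = 0.509), the main targets of the aryl hydrocarbon receptor, were not called, nor was any of the 8 tested genes of that receptor's list. In that list 1 gene was called higher under quantile normalisation or without WT library 5, and 1 higher and 1 lower with DESeq2.

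Conjugation enzymes as a list were mixed, with 8 genes higher, 4 lower and 37 not called of 49 tested. Over all genes tested, 0.594% were higher and 0.854% lower. Gstp1, a glutathione transferase of male liver, fell by 1.12 (adjusted p = 0.0141), and the sum of Gstp1, Gstp2 and Gstp3 was 7560, 15466, 8922, 8158 and 9260 in KO livers, against 22650, 30089, 18675, 21474 and 11720 in WT livers. KO liver 2 lay inside the WT range (ratio 0.472, exact permutation test, p = 0.0159). Ugt1a1, which joins glucuronic acid to bilirubin, rose by 0.47 (adjusted p = 0.0404) and was named after its values were seen. The 8 higher calls became 4 without WT library 2, KO library 1 or KO library 3, and 5 without WT library 1 or 3 or KO library 5, with no filter or in a fit of the PCB-153 livers alone. The 4 lower calls became 1 without WT library 2 or KO library 1, and 2 without WT library 1 or 4 or KO library 4.

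Of 26 drug and bile acid transporters tested, 4 rose and 1, Slco1a1, fell, against 0.594% and 0.854% of all genes. Slc22a26 and Slc22a27 encode organic anion transporters that stand next to each other on chromosome 19. Slc22a26 had counts of 1603, 1572, 1697, 1358 and 1582 in KO livers, against 468, 328, 562, 364 and 928 in WT livers (1.66 ± 0.24, adjusted p = 0.000429), and Slc22a27 rose by 1.30 (adjusted p = 0.0023). Abcc4, which exports conjugated steroids and bile acids to blood, had 62.7, 121, 72.4, 105 and 85.7 in KO livers, against 21.8, 20.1, 18.0, 31.9 and 64.6 in WT livers (1.61 ± 0.30, adjusted p = 0.00522). The values of Abcc4 met between KO liver 1 and WT liver 5. The bile salt export pump Abcb11, named after its values were seen, rose by 0.55 (adjusted p = 0.0461). None of 20 bile acid synthesis genes was called, while DESeq2 called 2 higher and 1 lower, and 1 was lower without KO library 2.

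Steroid hormone enzymes were split, with 3 genes higher and 4 lower of 23 tested, and 2 lower without KO library 2. For these and the phase I enzymes below, the shares over all genes were 0.594% higher and 0.854% lower. Beside Hsd3b5, a fall was seen in Hsd17b2, an enzyme that oxidises oestradiol and testosterone, with counts of 1984, 1583, 2151, 2065 and 2208 in KO livers, against 3281, 3980, 3429, 3277 and 2731 in WT livers (-0.74 ± 0.14, adjusted p = 0.00478). The groups did not overlap. Those that rose were Cyp17a1, Sult1e1 and Sult2a1, described above. Among phase I enzymes, 9 of 45 rose and 4 fell, and the carboxylesterase Ces3a, which hydrolyses esters and stored fat, fell, with 9458, 9347, 15245, 12201 and 17635 in KO livers, against 34887, 40761, 35548, 34583 and 25397 in WT livers (-1.45 ± 0.23, adjusted p = 0.000929).

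Some genes of the serpin and complement families, which encode secreted proteins, were lower, as were 0.854% of all genes tested. Of 19 serpin A genes tested, 6 fell and none rose, with a median log2 fold change of -0.33, which was -0.14 under quantile normalisation and -0.17 at a minimum mean of 50. Serpina12, known as vaspin, had counts of 7.08, 2.72, 12.9, 16.8 and 19.1 in KO livers, against 202, 202, 48.0, 45.2 and 44.3 in WT livers (-2.96 ± 0.61, adjusted p = 0.0114), and the call was lost without WT library 2. Serpina9, a protease inhibitor, fell by 3.64 (adjusted p = 0.00266), and Serpina11 fell by 0.41 (adjusted p = 0.0134), a call lost without WT library 2 and in a fit of the PCB-153 livers alone. The 6 calls became 2 without WT library 2 and 3 with no filter on low values. Of 25 complement genes tested, 4 fell and none rose (median -0.08). Those were parts of the pore that complement forms in target membranes. C8a had 3471, 2985, 4284, 4261 and 5797 in KO livers, against 6861, 7849, 8370, 6643 and 7061 in WT livers (-0.85 ± 0.15, adjusted p = 0.00316). C8b fell by 0.98 (adjusted p = 0.000693), C9 by 1.11 (adjusted p = 0.00255) and C6 by 1.32 (adjusted p = 0.029), the last lost without any of 6 single libraries. The male-biased list holds 3 complement and 2 serpin genes, so these counts overlap with it.

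The promoters of C8a, Serpina11 and Slc22a26 are shown because they hold the STAT5 palindrome TTCNNNGAA, which reads the same on both strands. The windows are the 250 bases before the RefSeq start on GRCm38.p6, all on the minus strand and printed 5′ to 3′ along the gene: C8a at chr4:104876399-104876648, Serpina11 at chr12:103989958-103990207 and Slc22a26 at chr19:7802668-7802917. Capitals mark the palindrome, whose first base lies at -228, -51 and -141 from the start. Of 9268 tested genes with such a window, 562 held the palindrome (6.06%), among them 1 of 62 genes that rose (1.61%) and 7 of 71 genes that fell (9.86%). A match of letters is no measure of binding.
C8a: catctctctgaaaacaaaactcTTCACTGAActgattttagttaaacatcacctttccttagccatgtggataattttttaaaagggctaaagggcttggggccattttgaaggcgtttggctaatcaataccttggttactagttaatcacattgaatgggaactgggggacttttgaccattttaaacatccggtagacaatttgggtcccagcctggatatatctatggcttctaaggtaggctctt
Serpina11: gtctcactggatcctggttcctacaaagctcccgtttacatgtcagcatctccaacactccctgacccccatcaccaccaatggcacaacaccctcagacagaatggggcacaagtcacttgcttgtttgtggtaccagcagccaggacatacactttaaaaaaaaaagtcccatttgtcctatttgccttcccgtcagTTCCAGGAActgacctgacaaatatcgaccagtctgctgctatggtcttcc
Slc22a26: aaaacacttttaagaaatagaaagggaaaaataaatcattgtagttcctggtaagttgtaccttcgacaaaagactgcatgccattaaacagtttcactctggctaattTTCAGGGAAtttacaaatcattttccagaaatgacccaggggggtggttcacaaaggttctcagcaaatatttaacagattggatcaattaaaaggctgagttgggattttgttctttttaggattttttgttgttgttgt

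Metallothioneins bind zinc, copper and cadmium and respond to metals, glucocorticoids and stress. Mt2 (chromosome 8, 94172664 to 94173568) had counts of 11046, 8501, 2054, 4005 and 1660 in KO livers, against 106, 66.0, 494, 1569 and 675 in WT livers. The groups were apart, with KO liver 5 just above WT liver 4, and the spread inside each was more than 5-fold (3.68 ± 0.92, adjusted p = 0.0461, 12.8-fold). No filter, edgeR, or leaving out any of 7 single libraries ended that call. Mt1, named after its values were seen, did not pass (2.86 ± 0.76, adjusted p = 0.0655), and the sum of Mt1 and Mt2 had overlapping groups (ratio 7.34, exact permutation test, p = 0.0159). Of 16 metal genes tested, Mt2 alone was called, and of 20 glucocorticoid-responsive genes 3 rose, Mt2, Lcn2 and Sult1e1. Among all genes tested 0.594% rose. The count of 3 became 0 without KO library 1 or 2 or WT library 2 or 3, and 1 without WT library 1 or KO library 3 or 4 or with no filter. Gadd45b, a stress protein that also assists CAR, had 224, 323, 470, 121 and 152 in KO livers, against 18.7, 23.5, 83.0, 83.3 and 77.5 in WT livers (2.24 ± 0.50, adjusted p = 0.0195), and 4 single libraries decided that call.

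The Mt2 promoter (chr8:94172368-94172617, plus strand, GRCm38.p6, RefSeq) is shown with the metal response element core, TGCGCNC or TGCACNC on either strand, in capitals. It has 3 matches, first bases at -223, -128 and -50. Of the 9268 windows, 29.6% held at least 1 match and 764 held 2 or more.
Mt2: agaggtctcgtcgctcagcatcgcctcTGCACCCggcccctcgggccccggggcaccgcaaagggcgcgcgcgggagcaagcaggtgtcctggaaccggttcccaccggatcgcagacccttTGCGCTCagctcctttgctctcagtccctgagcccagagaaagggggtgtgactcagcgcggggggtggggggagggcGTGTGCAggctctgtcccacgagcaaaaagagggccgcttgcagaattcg

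Lists of core liver metabolism had few or no calls, where 0.594% of all genes tested rose and 0.854% fell. None of 26 cholesterol synthesis genes was called, although 25 had a higher mean in KO livers (median log2 fold change 0.28). That median was 0.11 without KO library 5, whose summed level of 165600 lay above the 67490 to 109400 of the other KO livers, and 1 gene was called with DESeq2 or without KO library 1. None of 20 gluconeogenesis, 20 periportal, 19 clock or 30 cell division genes was called. Of 20 pericentral genes, those of hepatocytes around the central vein, Cyp2c29 and Cyp2a5 rose and none fell (median 0.02). Of 28 fatty acid synthesis and storage genes, Elovl3 and Fitm1 fell, and of 33 PPAR alpha targets, which serve fatty acid oxidation, Crat and Acot3 rose. Of 18 fetal and imprinted genes Akr1b7 and Peg3 rose and 14 had a higher mean (median 0.72). For 6 of the 18 every KO liver was above every WT liver, as for 1.21% of all genes tested. The summed counts of this list were 13200 to 53100 in KO livers and 5260 to 9890 in WT livers. Its 2 calls became 5 without WT library 5, 6 in a fit of the PCB-153 livers alone and 8 with DESeq2. Of 45 interferon response genes only Oas1b was called, lower in KO livers, and 40 had a lower mean (median -0.30). That median was -0.12 without WT library 5, whose summed level of 45850 lay above the 19420 to 24700 of the other WT livers, and at a minimum mean of 50 the call count was 0. Of 26 acute phase genes 1 fell, Serpina3k, and 1 rose, Lcn2. Lcn2, an iron-scavenging protein, had 204, 634, 181, 196 and 253 in KO livers, against 110, 62.6, 132, 92.5 and 138 in WT livers (1.32 ± 0.33, adjusted p = 0.0446). The KO livers were above the WT livers, KO liver 2 farthest, and 11 alternatives ended the call.

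Many called genes were neighbours in gene families. Runs of at least 3 called genes with gaps of at most 1 Mb numbered 16. The longest was the major urinary protein cluster on chromosome 4 (60066469 to 62150863), where 20 of 30 tested genes fell and none rose. On chromosome 7, all 5 tested genes of the Sult2a stretch (13623967 to 13989607) and 7 of 11 in the Cyp2b and Cyp2a stretch (25897620 to 26952346) rose. On chromosome 8 all 4 tested genes of the Ces3 and Ces4a stretch (105048601 to 105150109) fell. Stretches with both directions included Hsd3b on chromosome 3, with 5 lower and 1 higher, and Serpina on chromosome 12, with 7 lower and 1 higher. Reads of near-identical relatives can be assigned to the wrong member, so neighbours in a family are not separate measurements.

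**Figure D5:**
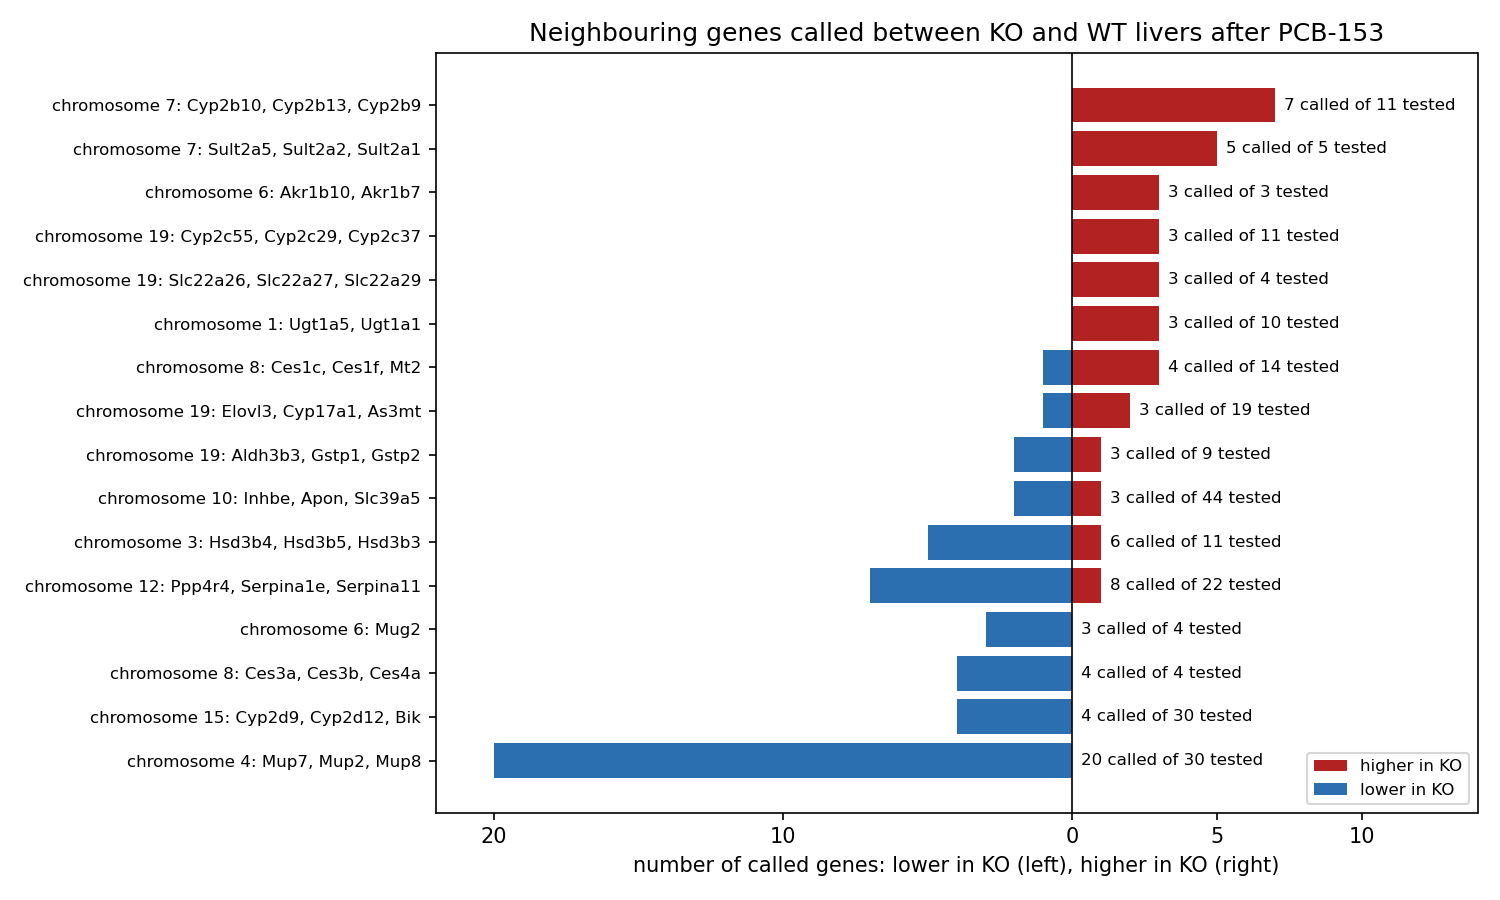
Number of genes called higher (to the right) and lower (to the left) in KO livers after PCB-153 for each of the 16 runs of neighbouring called genes, named by their leading genes. The Mup run on chromosome 4 is the longest with 20 lower, and most runs point in 1 direction.

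Genes around Nr1i2 on chromosome 16 were counted apart. Within 10 Mb, 3 of 122 tested genes were called (2.46%), against 1.45% over all genes. Timmdc1, an assembly factor of respiratory complex I, had counts of 517, 543, 416, 517 and 482 in KO livers, against 381, 387, 290, 301 and 314 in WT livers (0.57 ± 0.10, adjusted p = 0.00415). Abhd10, a mitochondrial thioesterase, had 75.9, 90.8, 86.2, 54.1 and 55.9 in KO livers, against 131, 139, 113, 142 and 113 in WT livers (-0.83 ± 0.16, adjusted p = 0.00522). Neither gene had overlapping groups. The third, Gm15638, fell by 1.03 (adjusted p = 0.0223), a call lost without any of 4 single libraries. Within 20 Mb, 8 of 232 were called (3.45%), 4 higher and 4 lower.

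The same difference between genotypes was set beside that in vehicle livers, which share no library with the PCB-153 livers. Under vehicle 98 genes were called (0.607%), 54 higher (0.334%) and 44 lower (0.272%). Of the 234 genes called after PCB-153, 227 had the same sign under vehicle (97.0%), against 67.7% of all genes tested, and 65 were called at both exposures, 34 higher and 31 lower. Among the 234, the median under vehicle was 0.78 for those that rose after PCB-153 and -0.83 for those that fell. These medians compare a selected set with its own selection and do not show a smaller effect under vehicle.

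No gene passed the test of whether its genotype difference changed with exposure. The interaction of genotype and exposure had 0 calls with limma, edgeR and DESeq2. With limma, 435 genes (2.69%) had an unadjusted p under 0.05, a smaller share than that threshold passes on average where nothing differs. The smallest adjusted p of the interaction was 0.986 (limma), and its median standard error was 0.24 on the log2 scale. Slco1a1 had 301, 3635, 605, 203 and 3076 in KO vehicle livers, against 3370, 3475, 2333, 2618 and 6087 in WT vehicle livers. KO vehicle libraries 2 and 5 thus reached the WT range, which no KO liver did after PCB-153. The major urinary protein sum had the same 2 libraries high, at 17407, 325767, 49222, 14026 and 321036 in KO vehicle livers, against 150070, 363776, 280340, 164709 and 402205 in WT vehicle livers. Of the male-biased genes 12 of 35 fell under vehicle (median -1.33), against 0.272% of all genes. Of the female-biased genes 8 of 38 rose (0.67), of the SXR/PXR targets 4 of 25 (0.37) and of the CAR targets 3 of 36 (0.25), against 0.334%. The CAR list mean was 10.81 to 11.09 in KO vehicle livers and 10.19 to 10.51 in WT vehicle livers. For SXR/PXR targets it was 11.5 to 11.9 and 10.78 to 11.13, so neither list overlapped. Cyp2b10 differed by 0.77 under vehicle (adjusted p = 0.2) and Gadd45b by 0.30 (adjusted p = 0.834).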

How the data were processed

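Per the labels' protocols, RNA was extracted from frozen liver with Trizol and sequenced on a HiSeq4000. The labels name 2 TruSeq kit versions, 1 of them stranded, and no source used here gives the strand setting. FastQC, STAR 2.6.0, featureCounts, DESeq2 (version given as 3.8) and mm10 are named in the submitters' processing notes. Liver values deposited by the authors are a signal, normalised counts in which reads of a library are divided by a single size factor. Dividing each value by the value of 1 read in its library gave whole reads for 100% of values (within 0.05 reads). In the authors' deposited DESeq2 table the values are log2 fold changes, p-values and adjusted p-values, with a score for each fold change. From it 26 date-like gene symbols were restored.

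Sample titles gave the groups. Genes averaging 10 or more were tested on log2(value + 1), which understates fold changes of low genes, with limma 3.58.1 in R 4.3.3 (eBayes with trend) over the 20 liver libraries in 4 groups, two-sided, adjusted by Benjamini-Hochberg. Called, rose, fell, higher and lower refer to an adjusted p under 0.05. Single sums were tested by exact permutation (scipy 1.17.1). Alternatives were pseudocounts of 0.5 and 5, no filter or a mean of 50, quantile normalisation, fitting only the 2 groups, blocking on replicate number, leaving out each library in turn, and edgeR 4.0.16 and DESeq2 1.42.0 on recovered reads. On simulated reads limma found 82% of changes of 1 on the log2 scale and called 9 of 15955 unchanged genes. Each gene was drawn independently there, without shifts shared by many genes of a library. These figures therefore do not measure how reliable the calls on the real libraries are. No libraries of a group were repeat counts of 1 library (chi-square per degree of freedom at least 10.04).

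The genes and the 43 lists were chosen with earlier results of these data known. Named were Nr1i2, the 12 largest rises and 12 largest falls among calls averaging 50 or more, up to 4 genes of smallest p from each list with 3 or more calls, Cyp3a11, Cyp2b10, Cyp2c55, Cyp1a1, Cyp1a2 and called genes within 10 Mb of Nr1i2, leaving out predicted genes among the rises and falls. Genes said to be named after their values were seen, and those named only as the calls of a list with 1 or 2 of them or beside a named relative, fall outside this rule. Positions are from GENCODE M21 (GRCm38), and sequence shared between genes is the share of 50-base words found in another gene. Some genes that this rule would name are not reported here.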

Additional observations from a re-analysis of the deposited data

Results flagged for a closer look

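In 3 of 120 groups of 5 libraries tested, 1 library stood apart from the rest of its group, where chance alone marks about 1 in 20 groups. Lcn2 had 634 normalised counts in KO library 2 after PCB-153, while the other 4 KO libraries lay between 181 and 253. Prlr had 4364 in KO library 5, while the others lay between 3244 and 3506. Serpina1e, a serpin of the liver, had 50703 in KO library 2, while the others lay between 61669 and 65674.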

How the results depend on the processing

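Of 1138 values of named genes recomputed under the alternatives, 1035 kept their direction and side of the threshold, 102 kept direction and lost the threshold, 1 gained it and 0 reversed. Of 56 named genes called, 35 kept the call in every setting run, 13 lost it only when a library was left out and 8 also in another setting, among them Mt2, Igf1, Lcn2, Elovl3, Cyp2b13 and Mup7. The 234 calls after PCB-153 ranged from 124 to 337 with 1 library left out and were 380 with DESeq2. The 98 calls under vehicle ranged from 49 to 148 with 1 library left out and were 64 at a minimum mean of 50 and 275 with DESeq2. The causes were not tested. With the replicate number as a block limma called 230 genes after PCB-153 and 106 under vehicle. Same-numbered KO and WT libraries deviated with correlations between -0.215 and 0.216. For numbers 3 and 5 this correlation (0.154 and 0.216) exceeded the highest with a WT library of another number (0.098 and 0.068). For numbers 1, 2 and 4 it did not. So few correlations cannot decide whether the numbers pair the libraries. The interaction had 0 calls in every setting run. The Igf1 call ended with no filter, with a fit of the 2 groups alone, and without WT libraries 1, 2 or 4 or KO libraries 1, 2 or 3. The median standard error per gene was 0.17 at 16.75 to 28.65 M reads per library, which limits calls of small differences.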

Other observations

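Several called genes not described above in detail had groups that did not overlap, and they were chosen after those values were seen. Pla2g12a, a secreted phospholipase, had counts of 484, 544, 507, 422 and 355 in KO livers after PCB-153, against 84.2, 90.6, 155, 133 and 111 in WT livers (2.02 ± 0.17, limma adjusted p = 4.69e-07). The groups were well apart, and under vehicle the gene rose by 1.25 (adjusted p = 0.000408). Alas2, the haem synthesis enzyme of red cell precursors, had 392, 289, 297, 333 and 464 in KO livers, against 973, 1314, 918, 985 and 574 in WT livers (-1.40 ± 0.23, adjusted p = 0.00166). The 7 tested red cell markers together summed to between 17100 and 27800 in KO livers and between 16200 and 25900 in WT livers. Keg1, which encodes an acyltransferase relative, fell by 1.66 (adjusted p = 0.000496), and Car3, a carbonic anhydrase, by 1.12 (adjusted p = 0.0153). Ift57, a gene of cilium transport on chromosome 16, rose by 1.98 (adjusted p = 0.000302) after PCB-153 and by 2.02 (adjusted p = 0.000366) under vehicle.

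Some genes, also chosen after their values were seen, were called after PCB-153 and had differences near 0 under vehicle, with no interaction past the adjusted threshold. Ihh, a hedgehog ligand, had 11.1, 8.17, 19.8, 8.86 and 25.4 in KO livers after PCB-153, against 73.8, 72.7, 56.0, 55.5 and 38.8 in WT livers (-2.04 ± 0.35, limma adjusted p = 0.00211), and a difference of -0.25 under vehicle. Foxq1, a forkhead transcription factor, had a log2 fold change of -1.87 after PCB-153 (adjusted p = 0.0189) and 0.07 under vehicle. Fst, which binds activin, had a log2 fold change of -1.78 (adjusted p = 0.0213) and -0.02 under vehicle. The imprinted gene Peg3 had a log2 fold change of 1.30 (adjusted p = 0.00503) and 0.21 under vehicle. Cyp2c37, a drug-metabolising enzyme, had a log2 fold change of 1.18 (adjusted p = 0.00834) and 0.01 under vehicle.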
